A study of Mus musculus with 6 samples.

Results

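Fatty acid oxidation takes place in mitochondria and in peroxisomes, and 45 genes of these pathways were followed in AML12 cells. They were taken by gene name from a fixed list out of 26359 genes and loci in the table, by a rule that uses no measured value. The list holds 3 acyl-CoA synthetases, 20 mitochondrial genes, 11 peroxisomal genes other than peroxins and 11 peroxins, the proteins that build peroxisomes and import their enzymes. Eci2 and Crat have products in both organelles, and they were counted as mitochondrial and peroxisomal, respectively.

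A fatty acid is first joined to coenzyme A by an acyl-CoA synthetase. In mitochondria the carnitine shuttle carries the acyl chain across the inner membrane, and a cycle of dehydrogenase, hydratase, second dehydrogenase and thiolase steps then shortens it, with electrons passed to the respiratory chain. Peroxisomes shorten very long and branched chains with oxidases in place of the first dehydrogenase, and in liver both routes respond to nuclear receptors of the PPAR family.

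The data are 6 libraries of AML12, an immortalised mouse hepatocyte line from an animal with a human TGF-alpha transgene, profiled by RNA sequencing of poly(A) mRNA. By the cell line label, 3 libraries were sh-NC and 3 were sh-1, and sh-1 was read as a hairpin against Tm9sf1, since the series concerns TM9SF1 in hepatic ischemia-reperfusion and describes stable lines. The sh-1 libraries are titled Sh-2 and the control titles name AML12 alone, so a control hairpin in the sh-NC cells is uncertain, and how many clones stand behind each line was not stated. No treatment or time is given for either group.

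Total counts per library were 36997329 to 51334798. Tm9sf1, the targeted gene, measured 47.2, 53.4 and 45.8 CPM in sh-NC and 35.3, 36.8 and 36.5 CPM in sh-1, where CPM are counts per 1000000 reads, scaled by TMM. It was lower in all 3 sh-1 libraries, from 48.8 ± 4.03 to 36.2 ± 0.783 CPM (SD, n = 3 each), a log2 change of -0.43 with SE 0.10 at an edgeR adjusted p of 0.00186. In a fit corrected for transcript GC content and length that value was -0.09 (edgeR adjusted p = 0.358). The hepatocyte marker list summed to 5647 to 6535 FPKM (fragments per kilobase of transcript, scaled to depth) in sh-NC and to 3768 to 4601 FPKM in sh-1. Most of that sum came from the keratins Krt8 and Krt18, while Alb was at 2.04 and 1.30 FPKM and Cps1 was under 0.1 FPKM in every library, so these 2 products of mature hepatocytes were low or near 0. Trf, another secreted product, was at 84.5 and 72.1 FPKM, and Hnf4a and Apob rose, by 1.17 and 2.53 on the log2 scale (edgeR adjusted p = 1.66e-07 and 1.38e-06). Ttr, Serpina1a, Alb and Krt18 fell, with log2 fold changes of -3.65, -1.11, -0.72 and -0.88 (edgeR adjusted p = 1.15e-05, 0.00129, 0.0461 and 9.66e-05). Those rises and falls were called in both fits. In the uncorrected fit alone, Trf and Krt8 were called lower (-0.29 and -0.49) and Afp higher (0.62). Apoa1 and Cps1 were called in neither fit. Of the 4 cholangiocyte markers, which summed to 726 to 806 FPKM in the sh-NC libraries and 731 to 797 FPKM in the sh-1 libraries, Krt19 was the most abundant, at 576 and 660 FPKM. Krt19 did not pass in the first fit (log2 fold change 0.13, edgeR adjusted p = 0.272). In the corrected fit Krt19 was called higher (0.60, edgeR adjusted p = 2.57e-06). Krt7 fell from 178 to 107 FPKM and Sox9 from 17.2 to 5.81 FPKM (log2 fold changes -0.83 and -1.62, edgeR adjusted p = 9.99e-06 and 5.87e-07). Both falls were called again in the corrected fit, and Epcam was too low to test. Endothelial markers summed to at most 0.551 FPKM and stellate markers to at most 3.03 FPKM in any library. The leukocyte list was at 3.42 to 3.97 FPKM in the sh-NC libraries and 0.459 to 0.822 FPKM in the sh-1 libraries, nearly all of it Cd68, with its other 5 genes under 0.1 FPKM. The part of these markers in the results was not tested. Fewer cells of a type and less RNA per cell cannot be told apart in such bulk libraries.

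Acyl-CoA synthetases, the mitochondrial pathway and the peroxisomal enzymes were mostly higher in sh-1, and the peroxins were divided. Of the 45 genes, 26 rose and 9 fell at an edgeR adjusted p under 0.05, and 10 did not pass. The background was broad, since 65.5% of the 13197 genes tested passed, 33.3% higher and 32.2% lower in sh-1. The median log2 fold change was 0.39 over the 45 genes, from -1.38 for Pex16 to 2.19 for Hacl1, and 0.00 over all genes tested. Of the genes that rose, 7 did so at least 2-fold, and of those that fell, 2, where 17.1% of all genes rose and 12.6% fell to that extent. The 3 values of one group lay wholly above or below those of the other in 37 of the 45 genes, against 70.3% of all genes tested. The share of all counts held by the 45 genes together was 0.276 to 0.288% in the sh-NC libraries and 0.364 to 0.367% in the sh-1 libraries.

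**Figure D1:**
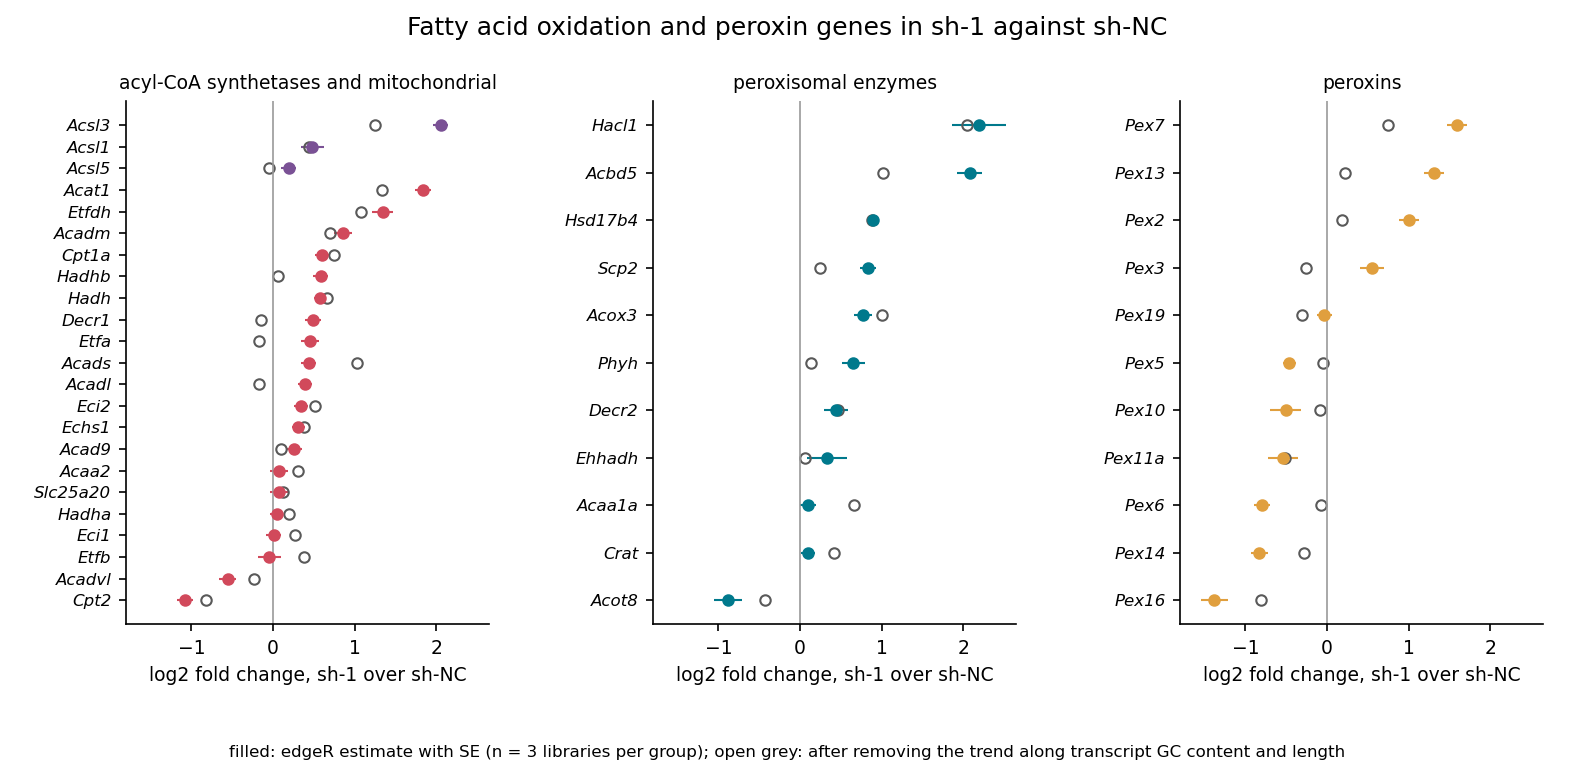
Log2 fold change of each of the 45 genes, sh-1 over sh-NC, grouped by class (filled points, edgeR estimate with its SE, n = 3 libraries per group; open grey points, from the fit corrected for transcript GC content and length). Most synthetase, mitochondrial and peroxisomal enzyme genes lie right of 0, and peroxins lie on both sides, from -1.38 for Pex16 to 1.60 for Pex7.

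The fold changes went with the GC content of the transcripts, and results are therefore given a second time, as corrected values, from a fit with that trend removed. The median log2 fold change was 1.03 in the 10% of genes lowest in GC content and -0.54 in the 10% that were highest. Across the 45 genes, which share the 6 libraries, Spearman's rho between GC content (38.6 to 63.1%) and log2 fold change was -0.73, and over all genes with a GC value it was -0.50. The median GC content was 46.4% in the genes that rose, 56.2% in those that fell and 52.1% in those that did not pass. In the fit with GC content and length removed, 67.7% of 11956 genes passed, 32.9% higher and 34.7% lower, and of the 45 genes 23 were higher, 8 lower and 14 without a call. There, 17 of the 26 rises and 6 of the 9 falls were called again in the same direction, and Acadl turned from higher to lower. That fit also removes any true change shared by genes of like GC content, and whether it did so here was not tested. Where a member or further pathway gene has no second value, its call was the same in both fits, and genes named only because their exons overlap a member's have values from the first fit alone.

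**Figure D2:**
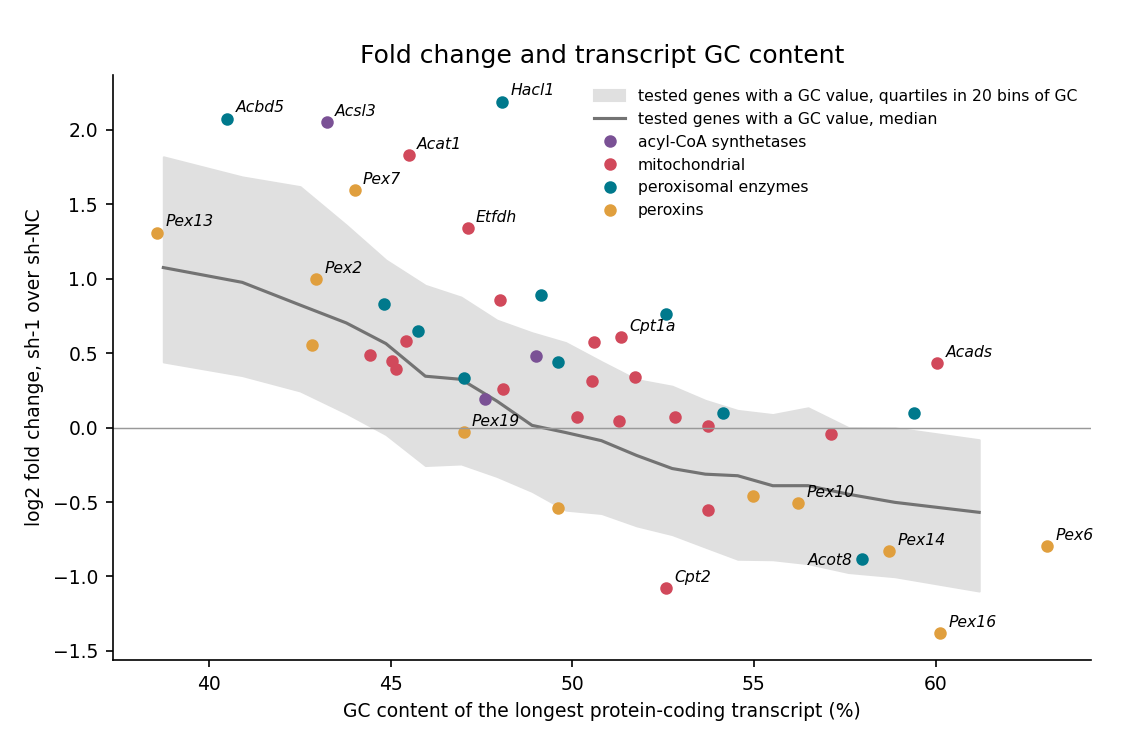
Log2 fold change (sh-1 over sh-NC) against the GC content of the longest protein-coding transcript, with the 45 genes as points coloured by class and the tested genes as a median line and quartile band in 20 bins of GC content. Acbd5, Acsl3, Acat1, Etfdh and Hacl1 lie above the band and Cpt2 and Pex16 below it, while Pex2, Pex10 and Pex14 lie within it and Pex13 and Pex6 just beyond its left and right ends.

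Of the synthetases, which activate long-chain fatty acids, Acsl3 rose about 4-fold. Acsl3 (chromosome 1, 78657825 to 78707743, plus strand, GRCm38), an enzyme of the endoplasmic reticulum and lipid droplets, measured 49.6, 46.5 and 55.7 CPM in sh-NC and 200, 205 and 225 CPM in sh-1. The groups were far apart, with a rise from 50.6 ± 4.66 to 210 ± 12.9 CPM (4.15-fold; a log2 change of 2.05, SE 0.09, at an edgeR adjusted p of 9.65e-09) and 1.25 after the correction (edgeR adjusted p = 5.04e-08). Acsl1, the main synthetase of liver tissue, was a minor one here and rose from 3.22 to 4.71 FPKM (log2 fold change 0.48, edgeR adjusted p = 0.00903). Acsl5, which is found at mitochondria and the endoplasmic reticulum, was the most abundant of the 45 genes at 115 FPKM in sh-NC and 137 in sh-1. Its difference did not pass (0.19, edgeR adjusted p = 0.0758), although it did without sh-NC replicate 1 (0.23, adjusted p = 0.0408, edgeR). The FPKM of Acsl3 was 0.133 of that of Acsl5 in sh-NC and 0.445 of it in sh-1. Acsl5 shares 404 exon bases with Zdhhc6 on the opposite strand, which fell from 199 to 127 CPM, and Acsl3 shares 244 with Utp14b on its own strand, at 9.38 and 8.48 CPM. Whether the counting used strand is not given in the sources used here. Exon overlaps with other genes are named for some of the 45 genes only.

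The carnitine shuttle changed in opposite directions at its 2 acyltransferases. Cpt1a (chromosome 19, 3322334 to 3385733, plus strand), the outer-membrane enzyme that sets the rate of entry, measured 120, 111 and 101 CPM in sh-NC and 150, 175 and 182 CPM in sh-1. Each sh-1 library was above each sh-NC library, and the mean rose from 111 ± 9.38 to 169 ± 16.9 CPM (a log2 change of 0.61, SE 0.10, at an edgeR adjusted p of 0.000127; corrected 0.75, edgeR adjusted p = 2.32e-06). Cpt2 (chromosome 4, 107903981 to 107923610, minus strand), which reforms acyl-CoA on the matrix side, measured 63.0, 56.0 and 64.2 CPM in sh-NC and 31.7, 27.5 and 27.7 CPM in sh-1. All sh-1 libraries were low, and Cpt2 fell from 61.1 ± 4.46 to 28.9 ± 2.39 CPM (a log2 change of -1.08, SE 0.10, at an edgeR adjusted p of 1.76e-06; corrected -0.82, edgeR adjusted p = 1.49e-06). The FPKM of Cpt1a was 1.05, 1.09 and 0.872 times that of Cpt2 in the sh-NC libraries, and 2.61, 3.52 and 3.62 times in sh-1. The mRNAs were thus at like levels in sh-NC and apart in every sh-1 library. Slc25a20, the carrier between the 2 enzymes, overlapped between the groups at 17.0 and 18.7 FPKM (log2 fold change 0.07, edgeR adjusted p = 0.587).

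Among the mitochondrial genes as a whole, 13 of 20 rose, 2 fell (Cpt2 and Acadvl) and 5 did not pass (Slc25a20, Hadha, Eci1, Acaa2 and Etfb). Their median log2 fold change was 0.37, and 0.29 after the correction, where 12 were higher and 3 lower. The shares over all genes tested were 33.3% higher and 32.2% lower, and 32.9% and 34.7% in the corrected fit. Summed FPKM was 746, 752 and 758 in sh-NC, beside 929, 899 and 921 in sh-1. The sums did not overlap, at 752 ± 5.77 against 916 ± 15.7 (SD, n = 3 each), a ratio of 1.22 that was not tested.

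The acyl-CoA dehydrogenases open each round and divide the chain lengths among them. Acadvl, for very long chains, fell: it measured 186, 227 and 240 CPM in sh-NC and 164, 144 and 136 in sh-1 (log2 fold change -0.55, edgeR adjusted p = 0.000563; corrected -0.23, edgeR adjusted p = 0.0175). Its exons share 1151 bases with Dvl2 on the opposite strand, which fell from 65.6 to 30.7 CPM, and reads from that overlap cannot be told apart without strand. Acadm, for medium chains, rose from 35.5, 28.3 and 31.1 CPM to 51.9, 60.6 and 59.6 CPM (log2 fold change 0.86, edgeR adjusted p = 2.38e-05; corrected 0.69). Acads, for short chains, rose by 0.44 on the log2 scale (edgeR adjusted p = 0.00127), and by 1.02 after the correction, its transcript having a GC content of 60.1%. Acadl, for long chains, rose from 54.9 to 75.4 FPKM (0.39, edgeR adjusted p = 0.000946), but was lower after the correction (-0.17, edgeR adjusted p = 0.0333). Acad9, which also serves complex I assembly, rose by 0.26 (edgeR adjusted p = 0.0193). That call was lost after the correction (0.10) and without sh-NC replicate 2 (0.25, adjusted p = 0.0683, edgeR), sh-NC replicate 3 (0.26, adjusted p = 0.0521, edgeR) or sh-1 replicate 3 (0.25, adjusted p = 0.0571, edgeR). In FPKM, Acadvl was the most abundant dehydrogenase in sh-NC at 97.8 and Acadl in sh-1 at 75.4, where Acads followed at 70.0 and Acadvl at 69.4.

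The middle and last steps rose in part, and Acat1 stood out. Acat1 (chromosome 9, 53580522 to 53610382, minus strand), the acetoacetyl-CoA thiolase, measured 18.3, 16.9 and 16.8 CPM in sh-NC and 64.4, 60.5 and 60.2 CPM in sh-1. The replicates were tight and the rise from 17.3 ± 0.822 to 61.7 ± 2.33 CPM was 3.56-fold (a log2 change of 1.83, SE 0.10, at an edgeR adjusted p of 2.22e-08; corrected 1.34, edgeR adjusted p = 1.74e-08). Hadh, the short-chain hydroxyacyl-CoA dehydrogenase, rose by 0.58 (edgeR adjusted p = 2.85e-05), Echs1, the short-chain hydratase, by 0.31 (edgeR adjusted p = 0.00596) and Eci2, an enoyl-CoA isomerase, by 0.34 (edgeR adjusted p = 0.00467). Echs1 was among the most abundant, at 77.8 FPKM in sh-NC and 101 in sh-1. Decr1, the dienoyl-CoA reductase for unsaturated chains, rose by 0.49 (edgeR adjusted p = 0.000625), and its value after the correction was -0.15 (edgeR adjusted p = 0.234). Eci1 and the thiolase Acaa2 overlapped between groups, at log2 fold changes of 0.01 and 0.07, and were called higher only in the corrected fit, at 0.27 and 0.31.

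Hadha and Hadhb encode the subunits of the trifunctional protein, which holds equal numbers of both and catalyses the long-chain steps after the first. Hadha measured 172, 163 and 177 CPM in sh-NC and 178, 174 and 176 in sh-1, so the groups overlapped (a log2 change of 0.04, SE 0.07, at an edgeR adjusted p of 0.63). Hadhb measured 39.8, 37.2 and 41.5 CPM in sh-NC and 62.6, 57.6 and 57.1 in sh-1. It was higher in each sh-1 library, with a log2 change of 0.58, SE 0.09, at an edgeR adjusted p of 0.000129. After the correction the order turned, with Hadha at 0.19 (edgeR adjusted p = 0.0147) and Hadhb at 0.06 (edgeR adjusted p = 0.565). The transcripts differ in GC content, 51.3% for Hadha and 45.4% for Hadhb. The FPKM ratio of Hadha to Hadhb was 2.20, 2.24 and 2.16 in sh-NC and 1.45, 1.54 and 1.57 in sh-1, a mean of 2.20 ± 0.0389 against 1.52 ± 0.0596 (SD, n = 3 each). The genes lie head to head on chromosome 5, and the stretch that no annotated exon covers between them, which is upstream of both, is shown here from the Hadhb strand (RefSeq, GRCm38.p6, chr5:30155163-30155247, plus strand), with GGGCGG, the letters of the GC box, in capitals.
Hadhb: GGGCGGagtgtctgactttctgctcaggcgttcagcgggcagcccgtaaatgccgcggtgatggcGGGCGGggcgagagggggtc
GGGCGG or its reverse complement occurred in the 250 bases before the start of 26 of the 37 genes, out of the 45, that matched a RefSeq entry (70.3%). It occurred in 35.4% of all 27025 genes with an entry and in 64.0% of those tested.

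Electrons from the dehydrogenases pass through the flavoprotein Etfa and Etfb to Etfdh, the membrane oxidoreductase that hands them to ubiquinone. Etfdh (chromosome 3, 79603788 to 79629500, minus strand) measured 18.3, 13.7 and 16.3 CPM in sh-NC and 38.2, 41.6 and 42.3 in sh-1. It was at least double in every sh-1 library relative to every sh-NC library, rising from 16.1 ± 2.31 to 40.7 ± 2.22 CPM (2.53-fold; a log2 change of 1.34, SE 0.12, at an edgeR adjusted p of 1.43e-06; corrected 1.07, edgeR adjusted p = 4.65e-07). Its exons share 278 bases with 4930579G24Rik on the opposite strand, at 9.53 CPM in sh-NC and 7.13 in sh-1. Those of Etfb share 617 bases with Gm45233 on the same strand, which is listed at 0. Etfa measured 64.4, 53.4 and 53.5 CPM against 69.9, 76.5 and 87.2 (log2 fold change 0.45, edgeR adjusted p = 0.00317; corrected -0.17, edgeR adjusted p = 0.0851). Etfb measured 54.4, 83.7 and 75.2 CPM against 73.8, 62.4 and 70.7, with overlapping groups and a wide spread in sh-NC (-0.04, edgeR adjusted p = 0.798; corrected 0.38, edgeR adjusted p = 0.00276). So the rise of Etfdh was called in both fits, and those of its partners in 1 of them each. On the FPKM scale Etfdh remained the lowest of the 3, at 16.9 in sh-1 beside 55.1 for Etfa and 82.2 for Etfb.

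**Figure D3:**
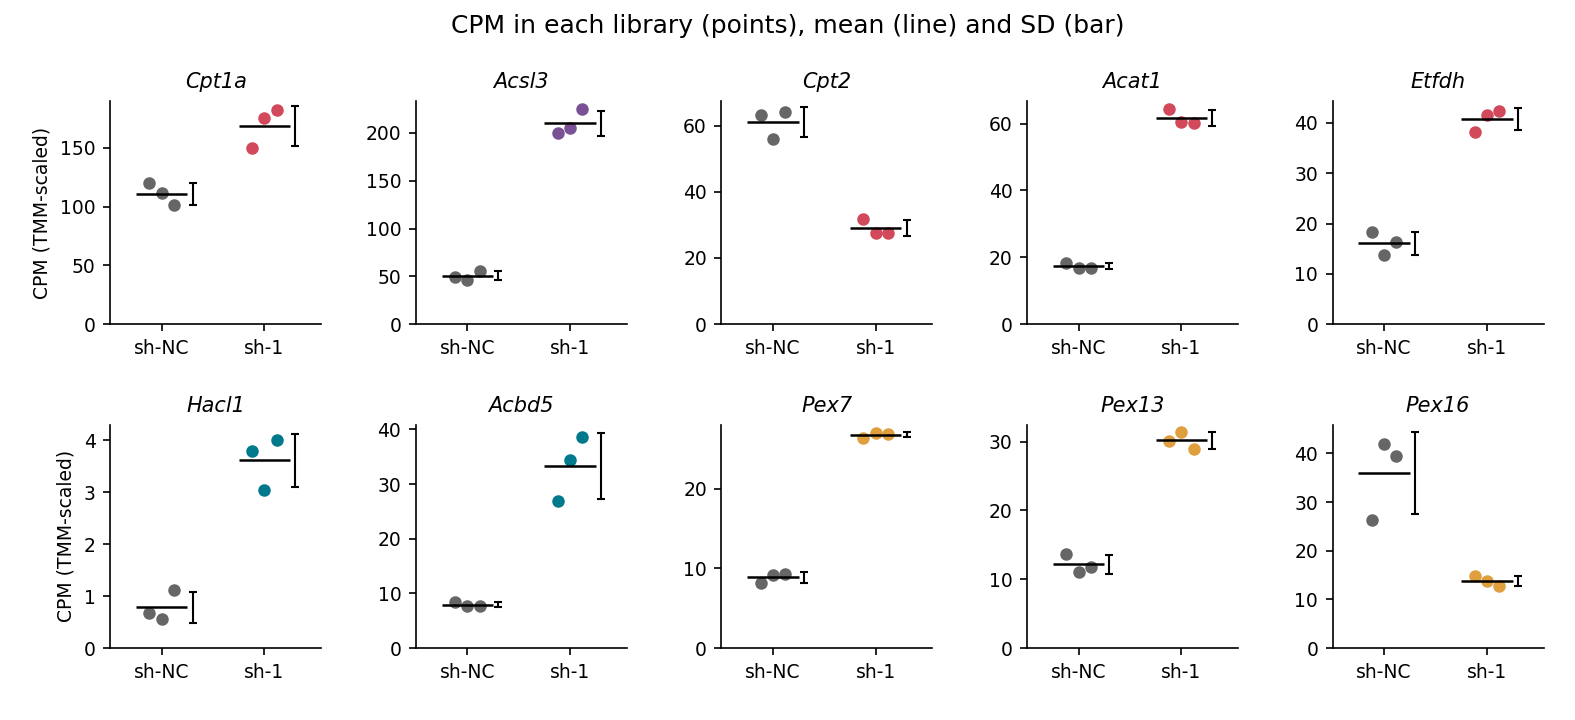
CPM in each library for Cpt1a and the 9 genes with a called change of at least 2-fold, in sh-NC and sh-1 (points, libraries; line, mean; bar, SD; n = 3 each; every vertical axis starts at 0). In all 10 panels the points of the groups do not overlap, as in 70.3% of all genes tested. The 9 genes were chosen by their change, which makes overlap unlikely. Only Cpt2 and Pex16 are lower in sh-1.

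The letters AGGTCA, to which nuclear receptors bind as single or paired copies, were looked for on both strands of the same 250 bases. They occurred in 5 of the 37 genes (13.5%), namely Acadm, Acadvl, Cpt1a, Echs1 and Scp2, against 15.8% of all genes and 13.2% of those tested. The paired form that PPAR dimers read, a direct repeat with 1 base between the copies and the fourth base of each copy open, was in 0 of the 37, against 0.40% of all genes and 0.298% of those tested, and TGACGTCA, the cAMP response element, in 1 (Pex13, 2.70%), against 1.77% of all genes and 3.06% of those tested. CCAAT was in 16 (43.2%), against 37.5% of all genes and 41.2% of those tested. Cpt1a, Acadm and Acadvl are shown because they carry the same letters and changed in different directions, Cpt1a and Acadm having risen and Acadvl having fallen. Capitals mark AGGTCA or its reverse complement TGACCT, which starts 94, 249 and 87 bases before the RefSeq start, respectively. The regions are chr19:3323051-3323284 (plus strand), chr3:153944644-153944893 (minus strand) and chr11:70015429-70015678 (minus strand), from RefSeq on GRCm38.p6, without bases of annotated exons. The Cpt1a region lies within the span given above for that gene, downstream of its outermost annotated start at 3322334.
Cpt1a: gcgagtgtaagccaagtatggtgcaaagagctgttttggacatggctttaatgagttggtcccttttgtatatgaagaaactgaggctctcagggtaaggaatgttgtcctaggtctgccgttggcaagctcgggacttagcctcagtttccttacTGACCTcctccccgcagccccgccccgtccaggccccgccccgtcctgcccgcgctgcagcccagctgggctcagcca
Acadm: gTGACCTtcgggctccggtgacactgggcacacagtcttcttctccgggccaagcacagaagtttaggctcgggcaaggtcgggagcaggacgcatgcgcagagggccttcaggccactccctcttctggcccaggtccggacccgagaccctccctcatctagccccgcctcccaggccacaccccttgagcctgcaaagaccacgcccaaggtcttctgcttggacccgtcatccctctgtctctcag
Acadvl: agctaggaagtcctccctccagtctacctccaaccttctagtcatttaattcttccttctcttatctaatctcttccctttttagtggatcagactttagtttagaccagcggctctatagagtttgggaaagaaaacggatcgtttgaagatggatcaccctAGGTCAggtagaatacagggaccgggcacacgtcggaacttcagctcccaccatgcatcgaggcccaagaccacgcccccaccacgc
A match of letters is a description and not a binding site.

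Of the 11 peroxisomal genes other than peroxins, 7 rose, 1 fell (Acot8) and 3 did not pass (Ehhadh, Acaa1a and Crat). Their median log2 fold change was 0.65, and 0.46 after the correction, where 8 were higher and 1 lower. Beside this, 33.3% of all genes tested rose and 32.2% fell, and 32.9% and 34.7% did so in the corrected fit. Summed FPKM was 144, 142 and 147 in sh-NC and 208, 209 and 210 in sh-1, so the sums stood apart, at 144 ± 2.13 and 209 ± 1.21 (SD, n = 3 each). That ratio of 1.45 was not tested.

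**Figure D4:**
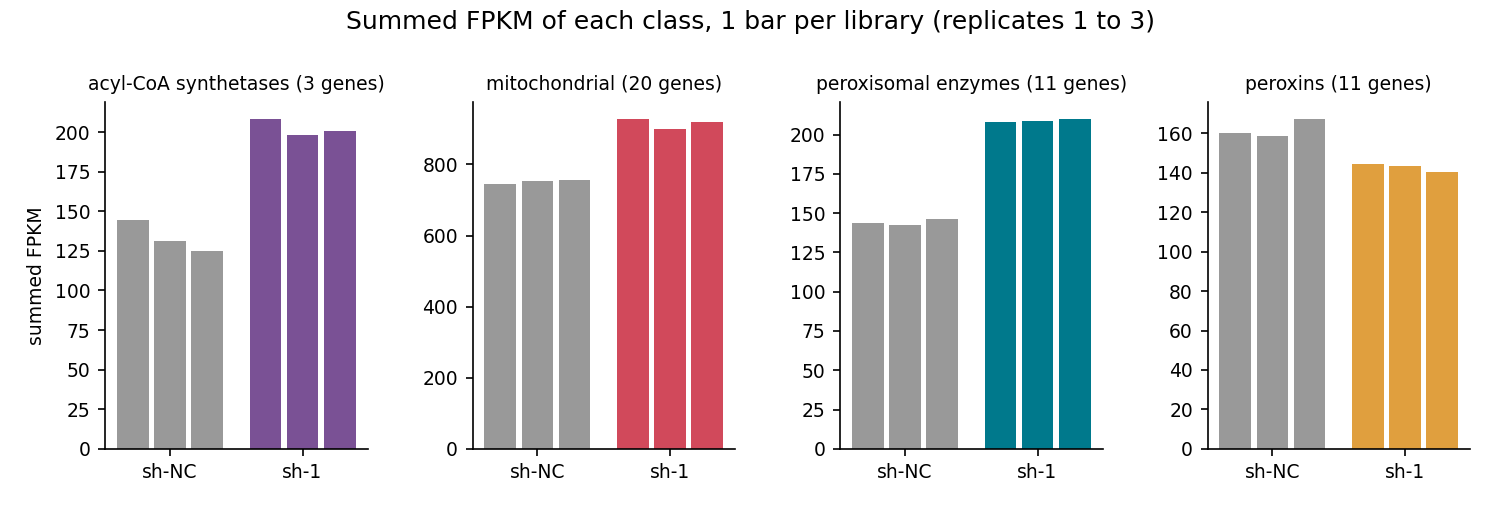
Summed FPKM of the 3 synthetases, 20 mitochondrial genes, 11 peroxisomal genes other than peroxins and 11 peroxins, with 1 bar per library (grey, sh-NC; coloured, sh-1; each axis starts at 0). The first 3 classes are higher in every sh-1 library, with ratios of 1.52, 1.22 and 1.45, and the peroxins are lower, with a ratio of 0.881.

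In peroxisomal oxidation Hsd17b4, Acox3 and Scp2 rose, while Ehhadh and Acaa1a did not pass in the first fit. Hsd17b4 (chromosome 18, 50128201 to 50196269, plus strand), the multifunctional protein for very long and branched chains, measured 96.3, 89.5 and 88.9 CPM in sh-NC and 171, 171 and 168 in sh-1. The replicates of each group were close, and it rose from 91.6 ± 4.09 to 170 ± 2.09 CPM (1.86-fold; a log2 change of 0.89, SE 0.08, at an edgeR adjusted p of 7.05e-07; corrected 0.88, edgeR adjusted p = 2.54e-08). Ehhadh, the other multifunctional enzyme and a PPAR-alpha target, was low at 0.954 FPKM in sh-NC and 1.25 in sh-1, with overlapping groups (0.33, edgeR adjusted p = 0.256). Acox3, an oxidase of branched chains, measured 18.4, 17.9 and 19.5 CPM in sh-NC and 29.1, 31.6 and 34.2 in sh-1, a rise of 0.77 (edgeR adjusted p = 5.95e-05; corrected 1.01). Scp2, whose products include a thiolase for branched chains and a lipid carrier, rose by 0.83 (edgeR adjusted p = 9.41e-06; corrected 0.25, edgeR adjusted p = 0.02). Acaa1a, the straight-chain thiolase, measured 87.4, 103 and 106 CPM against 113, 108 and 95.8, with overlapping groups, and passed only in the corrected fit (0.10, edgeR adjusted p = 0.398; corrected 0.66). Reads of Acaa1a may be divided with its near-identical paralog Acaa1b, which was at 0.916 and 0.908 CPM, and its exons share 290 bases with Myd88 on the opposite strand, which fell from 76.5 to 25.1 CPM.

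Hacl1 and Acbd5 had the largest rises of the peroxisomal genes. Hacl1 (chromosome 14, 31598730 to 31641286, minus strand), the lyase of alpha-oxidation, had 28, 21 and 54 reads in sh-NC and 158, 131 and 154 in sh-1. At this low depth it rose from 0.783 ± 0.300 to 3.62 ± 0.506 CPM (4.62-fold; a log2 change of 2.19, SE 0.33, at an edgeR adjusted p of 9.15e-05; corrected 2.05, edgeR adjusted p = 9.35e-05). It shares 108 exon bases with Btd on the opposite strand, which rose from 9.38 to 17.3 CPM, and 1540 with Gm49387 on its own strand, which is listed at 0. Phyh, the hydroxylase before Hacl1 in that pathway, rose by 0.65 (edgeR adjusted p = 0.0013), a call lost after the correction (0.14, edgeR adjusted p = 0.349). Acbd5 (chromosome 2, 23068167 to 23115558, plus strand) is not an enzyme but binds very-long-chain acyl-CoA and tethers peroxisomes to the endoplasmic reticulum. It measured 8.41, 7.63 and 7.65 CPM in sh-NC and 26.9, 34.4 and 38.7 in sh-1, so all sh-1 libraries were high though spread. It rose from 7.90 ± 0.445 to 33.3 ± 5.97 CPM (4.22-fold; a log2 change of 2.08, SE 0.15, at an edgeR adjusted p of 1.84e-07), and by 1.01 after the correction (edgeR adjusted p = 1.17e-06), its transcript being low in GC content at 40.5%.

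Enzymes that finish or release the chains were mixed. Acot8, a peroxisomal thioesterase, measured 10.2, 11.6 and 10.6 CPM in sh-NC and 6.57, 5.65 and 5.37 in sh-1. It was lower in every sh-1 library and fell from 10.8 ± 0.695 to 5.86 ± 0.627 CPM (a log2 change of -0.88, SE 0.17, at an edgeR adjusted p of 0.000512; corrected -0.42, edgeR adjusted p = 0.0195). Crat, which moves acetyl groups onto carnitine, did not pass (0.10, edgeR adjusted p = 0.315) and was higher in the corrected fit (0.42). Decr2, the peroxisomal dienoyl-CoA reductase, rose by 0.44 (edgeR adjusted p = 0.0195), a call lost without sh-1 replicate 3 (0.36, adjusted p = 0.0854, edgeR).

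The peroxins did not move as one. Of 11, 4 rose (Pex2, Pex3, Pex7 and Pex13), 6 fell (Pex5, Pex6, Pex10, Pex11a, Pex14 and Pex16) and Pex19 did not pass. Their median log2 fold change was -0.46, and -0.08 after the correction, where only Pex7 was called higher and Pex11a, Pex14, Pex16 and Pex19 lower. Of all genes tested, 33.3% rose and 32.2% fell, and in the corrected fit 32.9% were higher and 34.7% lower. The peroxins that rose had a median GC content of 42.9% and those that fell 57.5%. Summed FPKM was 160, 159 and 168 in sh-NC and 145, 144 and 141 in sh-1. The sums did not overlap, at 162 ± 4.70 and 143 ± 2.11 (SD, n = 3 each; ratio 0.881, not tested).

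Import receptors changed in opposite directions. Pex5, the receptor for the carboxy-terminal signal that most matrix enzymes carry, measured 88.6, 86.2 and 93.0 CPM in sh-NC and 66.1, 62.7 and 65.8 in sh-1. It was lower in each sh-1 library (log2 fold change -0.46, edgeR adjusted p = 0.000301), and -0.05 after the correction (edgeR adjusted p = 0.512). Pex7 (chromosome 10, 19853900 to 19907689, minus strand), the receptor for the amino-terminal signal of a few enzymes such as the thiolase and Phyh, measured 8.12, 9.10 and 9.33 CPM in sh-NC and 26.4, 27.0 and 26.9 in sh-1. The sh-1 values were high and close together, and the rise from 8.85 ± 0.642 to 26.8 ± 0.330 CPM was 3.02-fold (a log2 change of 1.60, SE 0.12, at an edgeR adjusted p of 3.42e-07; corrected 0.74, edgeR adjusted p = 0.000472). On the FPKM scale Pex7 stayed well below Pex5, with a ratio of 0.0506 ± 0.00198 in sh-NC and 0.174 ± 0.00352 in sh-1 (SD, n = 3 each).

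The docking and ubiquitin ligase partners were also divided. Pex13 (chromosome 11, 23646479 to 23665959, minus strand), a docking protein, measured 13.7, 11.0 and 11.8 CPM in sh-NC and 30.2, 31.5 and 28.9 in sh-1. It was more than double in each sh-1 library (12.2 ± 1.37 to 30.2 ± 1.26 CPM; a log2 change of 1.31, SE 0.12, at an edgeR adjusted p of 1.57e-06), but with the lowest GC content of the 45 genes, 38.6%, it was at 0.22 after the correction (edgeR adjusted p = 0.137). Its docking partner Pex14 measured 56.2, 55.7 and 65.2 CPM against 36.2, 30.1 and 33.5 and fell (-0.83, edgeR adjusted p = 2.25e-05; corrected -0.28, edgeR adjusted p = 0.00861). Pex14 shares 1776 exon bases with Gm17029 on the opposite strand, which has no counts listed. Pex2, a RING ubiquitin ligase of receptor recycling, measured 21.3, 17.3 and 19.7 CPM against 34.5, 41.9 and 40.3 and rose (1.00, edgeR adjusted p = 1.26e-05; corrected 0.19, edgeR adjusted p = 0.0772). Its partner ligase Pex10 measured 6.02, 7.71 and 7.34 CPM against 4.92, 5.49 and 4.40 (-0.51, edgeR adjusted p = 0.0344; corrected -0.08), and this call was lost in 5 of the 6 fits that left out a library. Without sh-NC replicate 2 the value was -0.43 (edgeR adjusted p = 0.111), without sh-NC replicate 3 -0.47 (0.0944), without sh-1 replicate 1 -0.50 (0.0589), without sh-1 replicate 2 -0.58 (0.0509) and without sh-1 replicate 3 -0.42 (0.116). Pex6, an ATPase that extracts the receptors, fell by 0.80 on the log2 scale (edgeR adjusted p = 1.93e-05), and at the highest GC content of the 45 genes, 63.1%, it was at -0.07 after the correction (edgeR adjusted p = 0.423).

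**Figure D5:**
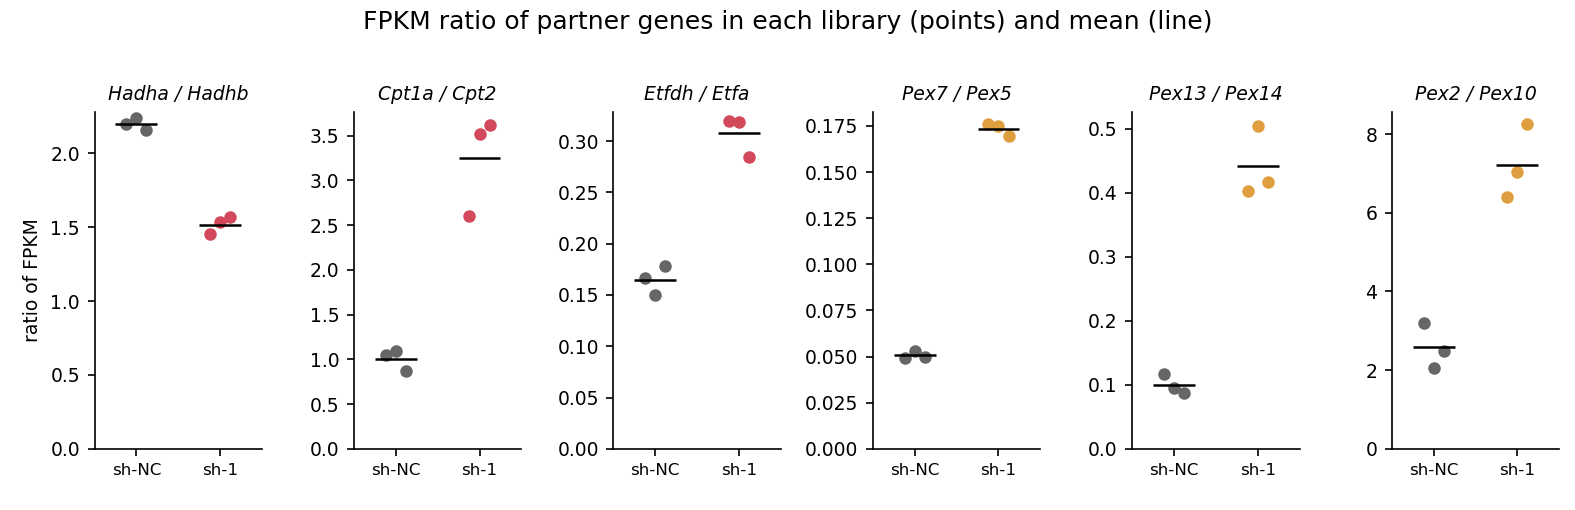
Ratio of FPKM within each library for Hadha to Hadhb, Cpt1a to Cpt2, Etfdh to Etfa, Pex7 to Pex5, Pex13 to Pex14 and Pex2 to Pex10 (points, libraries; line, mean; each axis starts at 0). The groups do not overlap in any panel shown. The mean Cpt1a to Cpt2 ratio is 3.25 in sh-1, and the mean Pex13 to Pex14 ratio is 0.10 in sh-NC and 0.442 in sh-1. Of further pairs computed and not shown, Etfa to Etfb and Acsl1 to Acsl5 overlap between the groups. The ratios are not corrected for GC content, which is 38.6% for Pex13 and 58.7% for Pex14.

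Peroxins of membrane assembly and division were lower or did not pass, apart from Pex3. Pex16 (chromosome 2, 92374676 to 92381217, plus strand), which recruits membrane proteins to new peroxisomes, measured 26.3, 42.1 and 39.4 CPM in sh-NC and 14.8, 13.8 and 12.7 in sh-1. The sh-NC values were spread and all above sh-1, and it fell from 35.9 ± 8.44 to 13.8 ± 1.03 CPM (a log2 change of -1.38, SE 0.16, at an edgeR adjusted p of 1.19e-05; corrected -0.81, edgeR adjusted p = 4.07e-05). Pex3, the membrane anchor for the carrier Pex19, rose by 0.55 (edgeR adjusted p = 0.00566; corrected -0.26, edgeR adjusted p = 0.0552), and shares 249 exon bases with Adat2 on the opposite strand. Pex19 itself, the most abundant peroxin at 39.6 FPKM in sh-NC and 40.8 in sh-1, overlapped between groups (-0.03, edgeR adjusted p = 0.786; corrected -0.31, edgeR adjusted p = 0.0108). Pex11a, which shapes the membrane for division, measured 7.35, 8.42 and 7.27 CPM against 4.92, 5.03 and 5.89 and fell (-0.54, edgeR adjusted p = 0.0188; corrected -0.52). That call was lost without sh-NC replicate 2 (-0.47, adjusted p = 0.0695, edgeR) and without sh-1 replicate 2 (-0.50, adjusted p = 0.0743, edgeR).

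Further genes of the pathway were read from a longer list. Over all genes tested, 33.3% rose and 32.2% fell. Of 30 listed peroxisomal genes 25 were tested, 14 rose, 2 fell and 9 did not pass, and 11 rises and both falls were called again after the correction. Cat, the catalase that removes the oxidases' hydrogen peroxide, rose from 71.0 ± 7.23 to 170 ± 6.53 CPM (log2 fold change 1.26, edgeR adjusted p = 1.92e-07). Far1, an enzyme of ether lipid synthesis, rose by 1.33 (edgeR adjusted p = 2e-06; corrected 0.13, not called), Lonp2, the peroxisomal protease, by 0.92 (edgeR adjusted p = 2.48e-06) and Crot, which loads shortened chains onto carnitine, by 1.65 (edgeR adjusted p = 2.57e-06). Pex26, the anchor of Pex6, fell by 0.81 on the log2 scale (edgeR adjusted p = 5.21e-05) and is named after its value was seen. Of 20 listed genes of mitochondrial oxidation and uptake 15 were tested, 4 rose, 5 fell and 6 did not pass. After the correction the 4 rises but only 1 of the falls were called again. The falls were Acsbg1, Slc27a4, Mlycd, Acot2 and Acacb, of which Acacb kept its call. The 4 rises had the smallest adjusted p of that list. The rises were Acsl4, a synthetase that prefers arachidonate (20.98 ± 4.00 to 115 ± 19.8 CPM, log2 fold change 2.45, edgeR adjusted p = 9.23e-08; corrected 1.31), Acadsb at 1.64 (edgeR adjusted p = 1.02e-06), Acad11 at 1.21 (edgeR adjusted p = 3.28e-06) and Acot13 at 0.84 (edgeR adjusted p = 0.000253).

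Regulators of these pathways were more often lower than higher, where 32.2% of all genes tested fell and 33.3% rose. Of 14 listed, 13 were tested, 3 rose and 7 fell, and all 7 falls but only 1 of the rises, Hnf4a, were called again after the correction. Of the other rises, Tfam turned from 0.38 to -0.23 (edgeR adjusted p = 0.017, corrected) and Sirt1 went from 0.75 to 0.03. Ppara, the receptor that drives oxidation genes in liver, was barely present, at 0.338, 0.210 and 0.249 CPM in sh-NC and 0.0959, 0.419 and 1.09 in sh-1, and did not pass (edgeR adjusted p = 0.27). Ppard, its relative, fell from 49.6 to 17.6 CPM (log2 fold change -1.50, edgeR adjusted p = 7.08e-07), Rxrb, a dimer partner, from 124 to 41.5 CPM (-1.58, edgeR adjusted p = 1.37e-07) and Nrf1, a factor for respiratory genes, from 81.6 to 31.0 CPM (-1.40, edgeR adjusted p = 8.85e-08). Hnf4a, a hepatocyte factor, rose from 150 to 337 CPM (1.17, edgeR adjusted p = 1.66e-07). Among 12 PPAR targets and ketone genes 5 were tested, of which 2 rose and 2 fell. Angptl4, a secreted protein that inhibits lipoprotein lipase, fell from 159 to 35.0 CPM (-2.18, edgeR adjusted p = 5.02e-09). Ucp2, a mitochondrial carrier, rose by 1.21 (edgeR adjusted p = 1.75e-07) and Oxct1, which uses ketone bodies, by 0.60 (edgeR adjusted p = 0.000211). Pdk4, Fgf21 and Cyp4a14 were among the 7 that were too low to test.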

How the data were processed

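Poly(A) RNA of 6 AML12 libraries was grouped by the cell line label. The submitters' processing notes name HISAT2, StringTie and GRCm38, without versions, and for the counting step and its use of strand no source used here gives a method. The deposited table holds raw read counts per gene from the authors, per the file headers, and FPKM values that the authors scaled for length and depth, per the file headers. Of 26369 rows, 10 without an identifier were left out. No label states that replicates are separate cultures, and p-values reflect the spread among libraries alone, which may be technical. Replicates differed beyond sampling noise (chi-square per degree of freedom 13.9 to 48.1), and each was kept.

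Counts were fitted over all genes with edgeR 4.0.16 (R 4.3.3; filterByExpr, TMM, robust glmQLFit and glmQLFTest, group alone, two-sided), with Benjamini-Hochberg adjustment over 13197 genes and a threshold of 0.05. The script was tested on simulated data. The corrected fit removed a spline trend along GC content (5 df) and length (4 df) of the longest protein-coding transcript in GENCODE M21, from each library, by an offset. Levels are compared between genes in FPKM only. The members, gene lists and tests were chosen with earlier results of these data known. Full values are given for members changed at least 2-fold, for Cpt1a, for the smallest adjusted p per class and direction and for paired subunits. Of each further list the 4 genes with the smallest adjusted p are named, with Ppara, and some genes that this rule takes are not reported here. Alternatives were DESeq2 1.42.0, limma-voom and limma 3.58.1 on log2(FPKM + 0.1) and log2(FPKM + 1), RLE scaling, other filters and thresholds, libraries left out and a replicate block.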

Additional observations from a re-analysis of the deposited data

How the results depend on the processing

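DESeq2, limma-voom, RLE scaling and a filter of CPM above 1 left the call of all 45 genes as it was, and the direction of each except Eci1, which was not called (-0.01 under that filter). Etfb and Pex19 also changed sign in limma on FPKM, and Eci1, Acaa2, Etfb and Pex19 did when a library was left out. None of these genes was called in the first fit or in those alternatives, and each was called in the corrected fit. Without a filter Pex10 was lost (-0.49, adjusted p = 0.0599), and limma on FPKM added Acsl5 at either pseudocount (0.25 at 0.1). Leaving out a library gave 24 to 27 genes higher and 7 to 9 lower, with 12 to 13 mitochondrial genes higher and 2 lower, 10 to 11 peroxisomal genes higher and 5 to 7 lower, and 7912 to 8728 genes called in all. Of the 35 called genes, 31 kept their call in all 6 of these fits, the others being Acad9, Decr2, Pex10 and Pex11a, and 0 moved by over 1.5-fold. A 2-fold minimum left 3921 genes in all, 7 members higher and 2 lower, 2 mitochondrial members higher and 1 lower, and 4 peroxisomal members higher and 1 lower. Removing the trend along GC content and length changed the sign of Acadl (-0.17), Decr1 (-0.15), Etfa (-0.17), Etfb (0.38) and Pex3 (-0.26), which were called in at least 1 fit. Of the other 40 genes 26 kept their call, 6 gained and 8 lost one, and Acsl5, called in neither fit, changed sign (-0.05). The cause was not tested. CPM per kilobase gave summed ratios of 1.17 for mitochondrial genes, 1.39 for peroxisomal enzymes and 0.824 for peroxins.

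No label states that the numbers in the titles pair libraries. The deviations of same-numbered libraries correlated at 0.0302 (number 2) and -0.0531 (number 3), which cannot decide whether they were prepared together. With those numbers as a replicate block over 4 libraries, 23 genes were higher, 7 lower and 7478 called in all. The calls of Acsl1, Acad9, Echs1, Pex10 and Pex11a were lost. The same 4 libraries without the block, a fit chosen after seeing the data, lost Acad9, Pex10 and Pex11a. With 3 libraries a group, depth limits Hacl1 and Ehhadh most.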
